A study of Rattus norvegicus with 12 samples.

Results

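Hepatocytes isolated from rats 4 h after death were compared with hepatocytes from heart-beating donors. The comparison used the 3 arrays titled as 4 h after death and the 3 titled as heart-beating, 6 of the 12 arrays of the study, and covered 14217 genes. The other arrays came from animals dead for 16 h or 30 h, 3 at each time, and entered the fit to share its estimate of the spread. All animals carry the strain label Fischer 334. Cells of every group were released from the liver by collagenase perfusion in 2 steps and were not cultured, so by the labels the groups differ only in the interval after death. No label states the age of the animals or how the bodies were kept. Every group holds 3 different animals, so n = 3 per group in all values below.

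Hepatocytes are the main cells of the liver. They make albumin, clotting factors and apolipoproteins, detoxify ammonia through the urea cycle, and oxidize drugs and fats with enzymes that need oxygen. After the circulation stops, transcripts can decay, and they can still be made for as long as a cell keeps its energy supply. Immediate early genes such as Fos and Jun are transcribed within minutes of many kinds of stimulus, without new protein synthesis.

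The 6 arrays resembled each other closely over the 14217 genes. Log2 signals correlated at 0.993 to 0.997 among heart-beating donors, at 0.995 among the 4 h animals and at 0.993 to 0.995 between the groups. The median standard deviation (SD) among the 3 arrays was 0.078 log2 units in heart-beating donors and 0.085 at 4 h. Hepatocyte markers had a median log2 signal of 13.2 where the brightest probe set read 14.503, against 8.07 for Kupffer cell and macrophage markers, 7.60 for endothelial markers and 5.05 for cholangiocyte markers. These levels depend on the probes and do not give shares of cells. Integrity of the RNA was described by control probe sets at the ends of a transcript. The 3′ signal of Gapdh exceeded the 5′ signal by 0.39 ± 0.08 (SD) log2 units in heart-beating donors and 0.38 ± 0.10 at 4 h, and that of Actb by 1.85 ± 0.05 and 1.71 ± 0.15. The exact two-sided permutation p was 1 for Gapdh and 0.2 for Actb, where 0.1 is the smallest that 3 arrays against 3 can give.

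Heart-beating donor 2 stood apart. It exceeded the mean of the other donors by more than 1 log2 unit in 58 genes, where donor 1 did so in 8 and donor 3 in 1, and the animals at 4 h in 12, 7 and 14. Some results that rest on donor 2 are given with and without it, chiefly those of the immediate early genes. For Coq10b, Lpin1 and Igfbp1, among others, only differences with all donors are given.

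Of the 14217 genes, 1 passed the test (0.00703%), at a Benjamini-Hochberg adjusted p under 0.05 with limma. Scd2, a stearoyl-CoA desaturase, which puts the first double bond into saturated fatty acids, rose 8.46-fold. Its log2 signal was 7.48, 8.68 and 6.65 in the heart-beating donors and 10.18, 10.87 and 10.999 at 4 h. All animals at 4 h lay above all donors, although the donors themselves spread widely, with an SD of 1.02 against 0.44 at 4 h. The log2 difference was 3.08 (standard error, SE, 0.39), with a 95% interval of 2.23 to 3.93 and an adjusted p of 0.0435, near the threshold. Over 24 other settings the gene passed in 11, with limma adjusted p from 0.000372 to 0.421 and log2 differences from 1.54 to 3.62. Leaving out 1 array kept the call in 3 of 12 cases: without heart-beating donor 2 (3.62, limma adjusted p = 0.000372), without animal 1 at 4 h (3.33, limma adjusted p = 0.0262) and without replicate 3 at 30 h (3.08, limma adjusted p = 0.0263). Donor 2 was the highest donor for Scd2 and animal 1 the lowest of its group at 4 h. Leaving out either raises the difference by construction, so those 2 cases add no support. Without any of the other 9 arrays Scd2 did not pass.

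Scd2 has 4 probe sets on the array. Tested among all 20826 probe sets with 1 gene symbol, 2 of these 4 passed, and 6 probe sets passed in all (0.0288%). One of the Scd2 pair is the brightest, described above. The other, 1388253_at, read 4.37, 4.63 and 4.29 in heart-beating donors and 6.32, 7.10 and 7.06 at 4 h. Its groups lay far apart, with a log2 difference of 2.39 (SE 0.17, limma adjusted p = 5.75e-05). The remaining ones, 1386889_at and 1398016_at, differed by 0.36 and 0.35 and did not pass (limma adjusted p = 0.862 and 0.730). All 4 differences were above 0, but their sizes differed, and the probe sequences were not analysed here. On the brightest probe set of Scd2 the 16 h animals read 5.71, 5.92 and 6.14 and the 30 h animals 6.79, 6.53 and 7.39, so every later animal lay below every animal at 4 h.

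**Figure D1:**
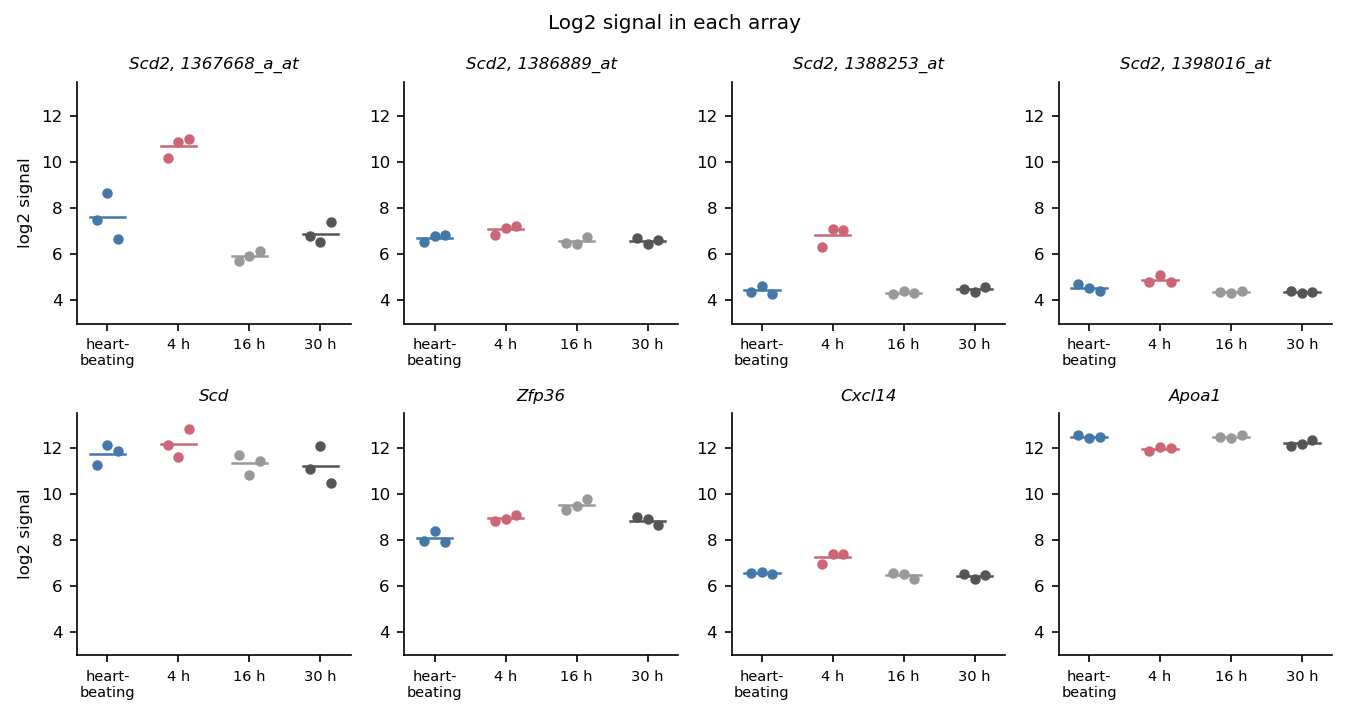
Log2 signal (vertical axis) in each of 12 arrays by group (horizontal axis) for the 4 probe sets of Scd2 and the brightest probe set of Scd, Zfp36, Cxcl14 and Apoa1; points are animals and bars are group means. On its brightest probe set Scd2 reads 10.18 to 10.999 at 4 h, above all arrays of the other groups, while the groups overlap for Scd.

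Its paralogue gave no such difference. Scd, the main desaturase of the liver, read 11.25, 12.13 and 11.84 in heart-beating donors and 12.11, 11.61 and 12.81 at 4 h. The groups overlapped, and the log2 difference of 0.44 (SE 0.39) had an interval of -0.40 to 1.27, so a change of more than 2-fold in Scd lies inside it. The promoters of the pair are shown because both genes lie on chromosome 1 and encode the same enzyme activity, but only Scd2 passed the test. The windows run from 250 bases before to 50 bases after the gene start in RefSeq (build GRCr8), with Scd2 at chr1:253118127-253118426 on the plus strand and Scd at chr1:253231682-253231981 on the minus strand. Capitals mark the motif CCAAT, searched on both strands.
Scd2: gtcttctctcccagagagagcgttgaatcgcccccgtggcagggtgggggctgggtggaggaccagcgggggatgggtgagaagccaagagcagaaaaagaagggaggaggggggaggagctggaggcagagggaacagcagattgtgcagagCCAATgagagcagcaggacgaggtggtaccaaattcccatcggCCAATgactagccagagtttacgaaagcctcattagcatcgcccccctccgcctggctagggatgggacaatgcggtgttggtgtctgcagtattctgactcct
Scd: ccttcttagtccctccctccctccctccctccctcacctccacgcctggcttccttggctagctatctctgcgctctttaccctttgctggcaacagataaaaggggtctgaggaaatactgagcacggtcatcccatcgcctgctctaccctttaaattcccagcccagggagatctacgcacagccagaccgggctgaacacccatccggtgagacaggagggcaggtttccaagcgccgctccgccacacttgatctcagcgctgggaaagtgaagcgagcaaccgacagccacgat
The Scd2 window held 2 matches, at positions -97 and -54 from the gene start, and the Scd window held 0. Of 27457 promoters of this length, 37.7% held at least 1 match, so the motif is common.

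The other genes of fatty acid synthesis did not pass. Of 24 measured genes of synthesis and desaturation, 1 passed and the median log2 difference was -0.04. Of the 24, 14 lay below 0, against 7400 of all 14217 genes. The interval lay inside 0.5 for 13 of the 24 (54.2%, against 93.9% of all genes). At an unadjusted p under 0.05, 2 members were higher (8.33%, against 2.52% of all genes) and 4 lower (16.7%, against 3.00%). The higher ones were Scd2 and the elongase Elovl3, at 0.15. Of these, Elovl3 and the lower ones other than Elovl2 are named after their values were seen. Malic enzyme (Me1), a source of NADPH, differed by -0.74, the elongases Elovl2 and Elovl5 by -0.56 and -0.22, and the desaturase Fads1 by -0.28. The regulators Mlxipl and Nr1h3 had narrow intervals, of -0.21 to 0.11 and -0.21 to 0.14. Lpin1, which makes diacylglycerol, had the widest of the list, from -1.72 to 0.74. For Lpin1 donor 2 stood above the others, at 8.04, 10.62 and 8.16 in donors 1 to 3.

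Beyond Scd2, the data bound the difference at 4 h for most genes. The 95% interval lay wholly inside 0.5 log2 units either way, a change of under 1.41-fold, for 13347 genes (93.9%). It lay inside 1 log2 unit, under 2-fold, for 14128 genes (99.4%). With 2 one-sided tests per gene and adjustment over all genes, 13618 genes (95.8%) were equivalent within 0.5 log2 units. The median SE was 0.089, and the median interval reached 0.19 either side of the estimate. Without donor 2, the interval lay inside 0.5 for 12935 genes. The liver and stress genes described here were bounded less often than genes at large: in 32 of 37 gene lists the share inside 0.5 was below the 93.9% of all genes, and in 5 it was not.

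Signal strength bears on this count, since dim probe sets vary little. Among 7109 genes in the upper 50% by mean signal, 6457 (90.8%) had an interval inside 0.5, against 96.9% in the lower 50%. By mean log2 signal, the share was 98.9% under 5, 95.6% from 5 to 7, 91.8% from 7 to 9, 85.5% from 9 to 11 and 89.8% above 11. At later times fewer genes were bounded in this way against the same donors, 12047 (84.7%) at 16 h and 10598 (74.5%) at 30 h. From 9 to 11 the later shares were 68.7% and 43.1%. The 3 comparisons share the heart-beating arrays, so their shares are given side by side without a test. RNA integrity also differed: the 3′ excess of Gapdh was 1.05 log2 units at 16 h and 1.97 at 30 h, against 0.39 in donors and 0.38 at 4 h. Its part in the later shares was not tested.

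**Figure D2:**
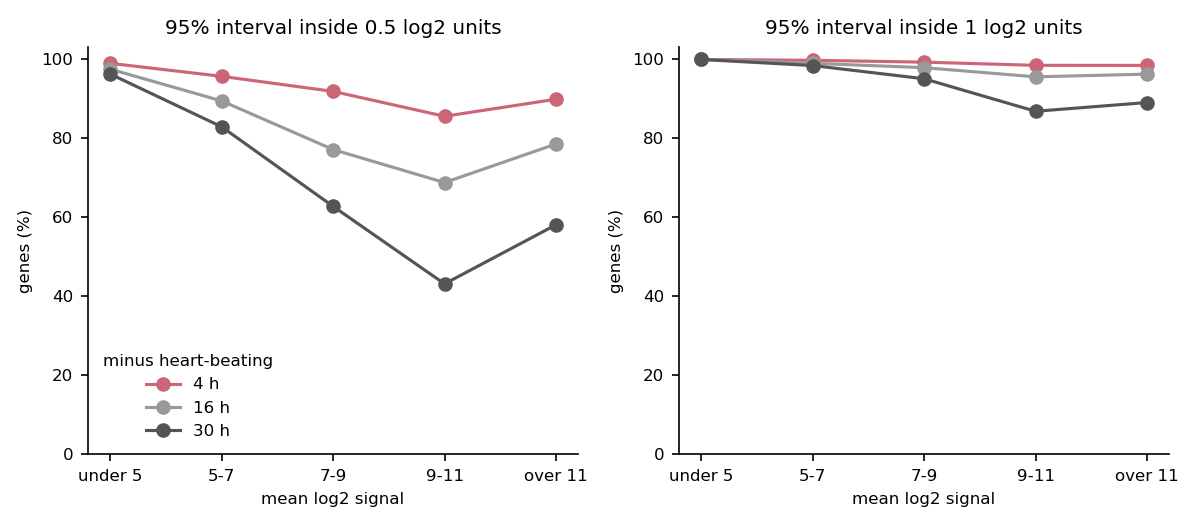
Percent of genes (vertical axis) whose 95% interval of the log2 difference from heart-beating donors lies inside 0.5 (left) or 1 log2 unit (right), by bin of mean log2 signal (horizontal axis) and time after death. At 4 h the share inside 0.5 is lowest, 85.5%, for signals from 9 to 11, where it is 43.1% at 30 h.

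Several abundant plasma protein transcripts had narrow intervals, although their lists as a whole were bounded less often than all genes. Alb (albumin) read 14.50, 14.49 and 14.49 in heart-beating donors and 14.49, 14.50 and 14.50 at 4 h. These readings are near the highest on any array, so a difference in Alb may be compressed. Below the top, Cps1, which makes the carbamoyl phosphate that enters the urea cycle, read 13.09, 13.18 and 13.04 against 13.05, 13.12 and 13.08. The groups of Cps1 overlapped, with a difference of -0.02 and an interval of -0.15 to 0.11, and its other probe set was bounded less tightly, to -0.34 to 0.48. Apoe and Apoc3, proteins of circulating lipoproteins, had intervals of -0.12 to 0.14 and -0.10 to 0.16. The fibrinogen chains Fga and Fgb were bounded to -0.14 to 0.14 and -0.11 to 0.16, and antithrombin (Serpinc1) to -0.17 to 0.09. Dimmer probe sets of the fibrinogen chains were bounded to -0.44 to 0.03 for Fga and to -0.16 to 0.11 and 0.06 to 0.44 for Fgb. Serpina7, which carries thyroid hormone, had the widest interval of the clotting and inhibitor list, -0.18 to 2.00. Of 29 clotting factors and protease inhibitors, 26 (89.7%) had an interval inside 0.5, of 25 acute phase and Stat3 response genes 18 (72%) and of 16 apolipoproteins 12 (75%), against 93.9% of all genes.

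Apoa1, the main protein of high-density lipoprotein, lay lower at 4 h. It read 12.53, 12.41 and 12.46 in heart-beating donors and 11.84, 12.02 and 12.0001 at 4 h. Every animal at 4 h lay below every donor, and the log2 difference was -0.52 (SE 0.08, interval -0.70 to -0.34), with a limma adjusted p of 0.184 that did not pass. With array weights Apoa1 was 1 of 11 genes that passed (-0.52, limma adjusted p = 0.0271). Apoa4, another apolipoprotein, lay the other way, from 10.19, 10.44 and 10.02 in donors to 10.47, 11.25 and 11.33 at 4 h. Its groups did not overlap, and its difference of 0.80 (0.27 to 1.33) did not pass (limma adjusted p = 0.736). Of 16 hepatocyte markers, 0 passed, 14 had an interval inside 0.5 and 16 inside 1.

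Genes of drug metabolism had no call. With 1 call among all 14217 genes, the lack of a call in this list or those below says little about it. Of 34 cytochrome P450 genes, 27 had an interval inside 0.5 (79.4%, against 93.9% of all genes) and 33 inside 1, with a median difference of -0.02 against -0.005 over all genes. At an unadjusted p under 0.05, 4 were higher (11.8%, against 2.52% of all genes) and 1 lower (2.94%, against 3.00%). Cyp2e1, which oxidizes ethanol and acetaminophen, was bounded to -0.13 to 0.21, Cyp2c12 to -0.15 to 0.10 and Cyp2c6v1 to -0.20 to 0.06. Cyp4b1 and Cyp2b3 had the smallest p of the list, at 0.31 and -0.38 (limma adjusted p = 0.761 and 0.782). Cyp26a1, which clears retinoic acid, had an interval of 0.02 to 1.02, the one of the list to pass 1. Of 30 conjugation enzymes, 26 (86.7%) were inside 0.5 and 30 inside 1. The glutathione transferases Mgst1 and Gsta1 had intervals of -0.17 to 0.07 and -0.15 to 0.11. Another, Gstp1, read 8.36, 8.25 and 8.62 in donors against 8.88, 8.92 and 9.14 at 4 h. The groups of Gstp1 did not overlap, and its difference of 0.57 (0.28 to 0.86) did not pass (limma adjusted p = 0.445).

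Nitrogen and glucose metabolism had no call, where 1 of all 14217 genes passed and 93.9% had an interval inside 0.5. Of 11 urea cycle genes, 9 (81.8%) were inside 0.5 and 11 inside 1, and the mitochondrial aspartate carrier Slc25a13 was bounded to -0.15 to 0.16. The other probe set of Slc25a13, 1379592_at, was bounded to -0.17 to 0.35. Of 13 gluconeogenesis genes, 9 (69.2%) were inside 0.5 and 11 inside 1. Pck1, which makes phosphoenolpyruvate for new glucose, read 11.50, 13.12 and 12.05 in donors and 12.93, 12.37 and 12.52 at 4 h. The groups overlapped, and the interval of -0.28 to 1.05 was wide. Of 15 glycolysis genes, 14 were inside 0.5, with Aldoa bounded to -0.16 to 0.20 and Pgam1 to -0.27 to 0.07.

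Genes of bile acid synthesis and transport lay below 0 in 15 of 22 cases, 3 of them at an unadjusted p under 0.05. Over all 14217 genes, 7400 lay below 0. Cyp7a1, the rate-limiting enzyme of bile acid synthesis, read 9.38, 11.06 and 10.55 in donors and 9.97, 9.49 and 9.29 at 4 h. The groups overlapped, and the difference of -0.75 (-1.48 to -0.02) did not pass (limma adjusted p = 0.897). Abcc2, the canalicular exporter of conjugates, differed by -0.49 (-0.76 to -0.23, limma adjusted p = 0.513), whereas the bile acid importer Slc10a1 was bounded to -0.20 to 0.11. Of all 14217 genes, 785 (5.52%) had such a p, against 711 if it were uniform, 358 of them higher (2.52%) and 427 lower (3.00%).

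Subunits of the respiratory chain, the ribosome and the proteasome had no call, where 1 of all 14217 genes passed. Of 66 subunits of oxidative phosphorylation, 0 passed, 65 were inside 0.5 (98.5%) and 66 inside 1, with a median of -0.06 and 56 below 0. Their median interval reached 0.20 either side, against 0.19 for all genes, 0.18 for ribosomal proteins and 0.25 for proteasome subunits. Uqcrq, of complex III, was bounded to -0.16 to 0.10, and Cox5a, of complex IV, differed by -0.26 (-0.52 to 0.00). Of 36 cytosolic ribosomal proteins, 36 were inside 0.5, with a median of 0.04. Of 36 proteasome subunits, 32 lay below 0 with a median of -0.13, and 31 were inside 0.5 (86.1%, against 93.9% of all genes). Over all 14217 genes, 7400 lay below 0. Psma3, of the proteolytic core, read 8.12, 8.01 and 8.10 in donors and 7.73, 7.91 and 7.72 at 4 h. The groups did not overlap, and the difference of -0.29 did not pass (limma adjusted p = 0.731). Animal 3 at 4 h was the lowest of its group in 31 of the 36 subunits, and its part in the median was not tested.

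Stress pathways showed no call, where 1 of all 14217 genes passed. The 28 measured genes of the hypoxia response had a median of -0.01. Of their intervals, 21 lay inside 0.5 (75%, against 93.9% of all genes) and 28 inside 1. Hif1a, the oxygen-regulated transcription factor, was bounded to -0.15 to 0.16, and Ndrg1, one of its targets, to -0.15 to 0.15. Angptl4 and Egln3, also targets, had the smallest p of the list, at 0.31 and 0.26 (limma adjusted p = 0.898 and 0.921). The inducible heme oxygenase Hmox1 differed by 0.06 (-0.13 to 0.25) and the inducible heat shock protein Hspa1a by 0.05 (-0.34 to 0.43). Of 25 heat shock chaperones, 21 lay below 0, and of 26 genes of endoplasmic reticulum stress 22 did, each list with a median of -0.12. Over all 14217 genes, 7400 lay below 0. Intervals lay inside 0.5 for 15 of the chaperones (60%) and 16 of the other list (61.5%), against 93.9% of all genes. Animal 3 at 4 h was the lowest of its group in 18 of the 25 chaperones, and its part in their median was not tested. Dnajb9, a chaperone of the endoplasmic reticulum, read 9.75, 9.70 and 9.52 in donors and 9.19, 9.06 and 9.09 at 4 h. Its groups did not overlap, at -0.55 (limma adjusted p = 0.733).

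Genes of cell death and antioxidant defence had no call, where 1 of all 14217 genes passed. Of 37 apoptosis regulators, 33 were inside 0.5 (89.2%, against 93.9% of all genes) and 37 inside 1, and the death agonist Bid was bounded to -0.10 to 0.23. Of 30 autophagy and lysosome genes, 29 were inside 0.5 (96.7%), with the lysosomal membrane protein Lamp2 at -0.21 to 0.05. The other Lamp2 probe set, 1383080_at, had an interval of -0.32 to -0.002. Of 33 antioxidant genes, 25 were inside 0.5 (75.8%), with glutathione peroxidase (Gpx1) bounded to -0.13 to 0.13 and catalase (Cat) to -0.23 to 0.06. The widest of these was Mt2A, a metallothionein that binds zinc, at 11.18, 10.57 and 10.67 in donors and 10.80, 8.89 and 11.02 at 4 h.

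**Figure D3:**
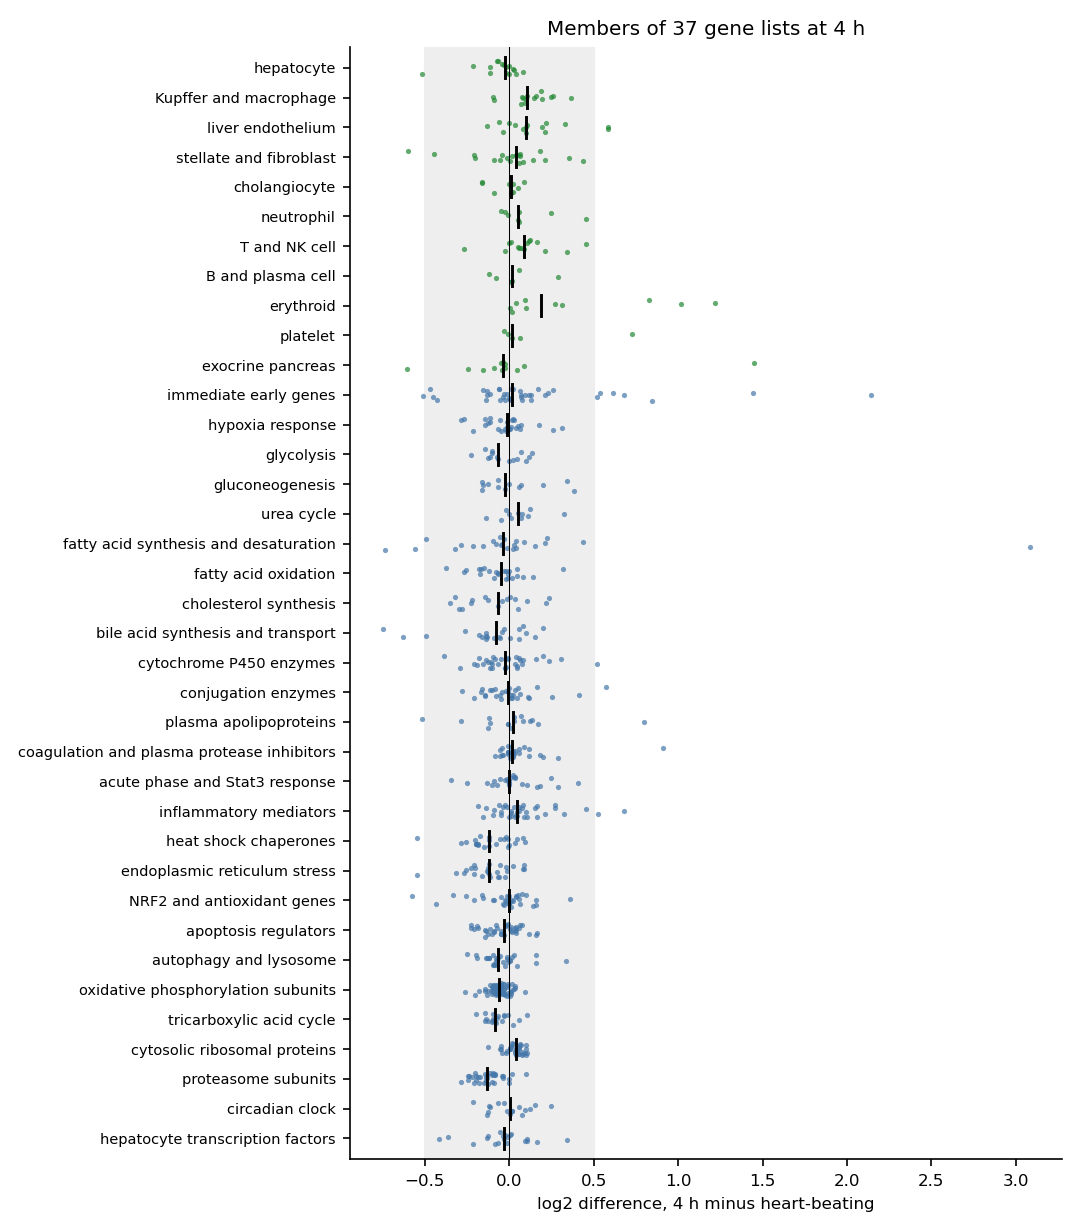
Log2 difference at 4 h minus heart-beating (horizontal axis) of each measured member of 37 gene lists (rows), 11 of cell type markers in green and 26 of pathways in blue; black bars are list medians and the grey band spans 0.5 either way. List medians lie between -0.13 (proteasome subunits) and 0.19 (erythroid), and Scd2 at 3.08 is the farthest point.

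Immediate early genes were bounded less often than most lists. Of 40 measured members, 0 passed, 21 had an interval inside 0.5 (52.5%) and 29 inside 1, and the median difference was 0.02. Zfp36, an RNA-binding protein that speeds the decay of cytokine transcripts, had the smallest p. It read 7.97, 8.38 and 7.91 in heart-beating donors and 8.83, 8.90 and 9.06 at 4 h. The groups did not overlap, and the log2 difference was 0.84 (SE 0.14, interval 0.54 to 1.15, limma adjusted p = 0.184). Without donor 2 it was 0.99 and passed (limma adjusted p = 0.0205). Donor 2 was the highest donor for Zfp36, so leaving it out raises the difference by construction.

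The promoter of Zfp36 is shown as that of the immediate early gene nearest to the threshold (RefSeq, build GRCr8, chr1:92799059-92799358, minus strand). Capitals mark a CArG box, the pattern bound by serum response factor.
Zfp36: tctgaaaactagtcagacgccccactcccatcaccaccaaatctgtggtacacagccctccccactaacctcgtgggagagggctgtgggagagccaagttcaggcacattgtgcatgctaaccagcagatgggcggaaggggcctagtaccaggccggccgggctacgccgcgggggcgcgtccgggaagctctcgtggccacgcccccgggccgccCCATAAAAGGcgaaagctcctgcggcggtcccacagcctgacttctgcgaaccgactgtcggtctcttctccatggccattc
The match starts at position -32 from the gene start, and 1.64% of 27457 promoters hold such a match. A match of letters is not evidence of a bound site.

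Fos, a subunit of the transcription factor AP-1, read 4.33, 4.97 and 4.53 in heart-beating donors and 5.11, 6.78 and 8.36 at 4 h. Its groups did not overlap, with animal 1 just above the donors and animal 3 far above them. The difference was 2.14 (SE 0.57, interval 0.91 to 3.37) and did not pass (limma adjusted p = 0.648). Without animal 1 it was 2.96 and passed (limma adjusted p = 0.0285). Animal 1 was the lowest of its group for Fos, so leaving it out raises the difference by construction and adds no support. The other Fos probe set, 1371283_at, differed by 0.05 (-0.12 to 0.21), so the higher values of Fos rest on 1 of 2 probe sets. It was dim in every animal, at 4.52, 4.53 and 4.51 in donors and 4.47, 4.51 and 4.72 at 4 h. Whether it detects Fos was not tested. Dusp1, a phosphatase that switches off stress-activated kinases, was singled out after its values were seen and read 8.90, 10.17 and 8.28 against 9.74, 10.92 and 11.04. Its groups overlapped, and the difference of 1.45 (0.23 to 2.66) did not pass (limma adjusted p = 0.897). The other Dusp1 probe set, 1368147_at, differed by 1.26 (0.40 to 2.12) and did not pass among probe sets (limma adjusted p = 0.820).

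Jun, the partner of Fos in AP-1, had donors that differed widely. It read 6.70, 10.44 and 7.52 in heart-beating donors and 7.50, 9.50 and 9.68 at 4 h. Donor 2 exceeded all animals at 4 h, and the difference of 0.68 had an interval of -1.03 to 2.38. Atf3, a stress-induced repressor, read 4.28, 7.38 and 4.42 against 4.39, 4.70 and 5.59, and the zinc finger factor Egr1 read 6.28, 8.86 and 6.45 against 6.69, 7.55 and 8.90. Donor 2 was the highest donor for each of these genes, and the differences were -0.47 for Atf3 and 0.52 for Egr1. It was the highest of the 3 donors in 35 of the 40 immediate early genes and in 14 of 17 clock genes, against 4452 of all 14217 genes (31.3%).

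Without donor 2, the median of the 40 immediate early genes was 0.19. Of them, 14 were higher at an unadjusted p under 0.05 and 0 lower, against 334 of all genes higher (2.35%) in the same fit. With all donors, 3 of the 40 were higher and 1 lower at that threshold. Donor 2 was the highest donor in 35 of these 40 genes, against 31.3% of all genes. Leaving it out raises the differences of those 35 by construction, so the counts without it are no support for a rise. Without donor 2, Jun differed by 1.79, Egr1 by 1.35 and Dusp1 by 1.97, none of which passed (limma adjusted p = 0.5001, 0.726 and 0.387). Over all genes, 5 passed without donor 2 (0.0352%), Scd2, Zfp36 and Syne2 higher and Ptgr1 and LOC100911506 lower. The labels give no reason to leave out donor 2, so the values with all 3 donors stand as the main result.

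Donor 2 was also the highest donor in each of the genes with the largest spread among heart-beating donors. The 10 of largest SD were Jun, Slc38a2, Myc, Atf3, Gadd45g, Sds, Igfbp1, Slc25a25, Lpin1 and Egr1. Slc38a2, an amino acid carrier, read 7.50, 10.82 and 7.78 in donors. Igfbp1, a liver protein raised by fasting, read 10.06, 13.01 and 10.85, and Sds, which breaks down serine, 7.14, 9.74 and 6.91. For Igfbp1 the difference at 4 h was 0.00 with an interval of -1.64 to 1.64, so these arrays bound it only loosely.

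**Figure D4:**
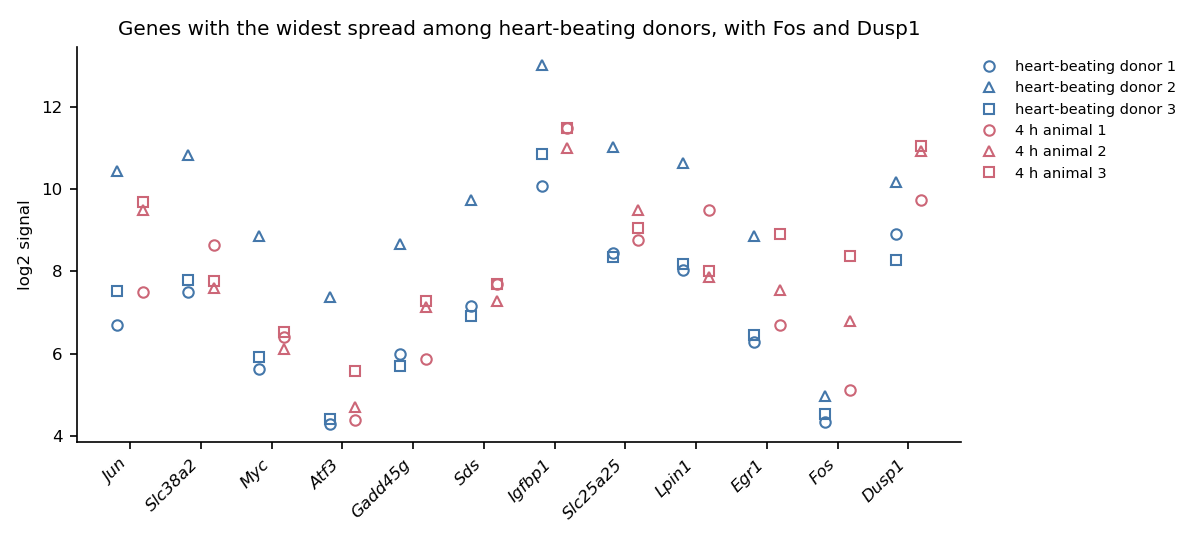
Log2 signal (vertical axis) of the 10 genes with the largest SD among heart-beating donors, with Fos and Dusp1 (horizontal axis); each symbol is 1 animal, blue for heart-beating donors and red for 4 h. Donor 2 is the highest donor for all 12 genes.

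Inflammatory mediators had no call, with chemokines nearest to the threshold. Of 37 measured, 28 had an interval inside 0.5 (75.7%, against 93.9% of all genes) and 37 inside 1. At an unadjusted p under 0.05, 6 were higher (16.2%, against 2.52% of all genes) and 1 lower (2.70%, against 3.00%). Cxcl14, a chemokine, read 6.56, 6.60 and 6.51 in donors and 6.93, 7.40 and 7.37 at 4 h. The groups did not overlap, at 0.68 (SE 0.12, interval 0.43 to 0.93). Ccl5, a chemokine that draws T cells, read 8.05, 8.10 and 8.13 against 8.62, 8.52 and 8.51. Its groups did not overlap, at 0.46 (SE 0.08, interval 0.28 to 0.63). Neither passed (limma adjusted p = 0.184 for each), although Cxcl14 did without animal 1 at 4 h (0.83, limma adjusted p = 0.0206). Animal 1 was the lowest of its group for Cxcl14, so leaving it out raises the difference by construction. With array weights both chemokines passed, at 0.69 for Cxcl14 and 0.45 for Ccl5 (limma adjusted p = 0.0279 for each). The other Cxcl14 probe set, 1396129_at, differed by 0.03 (-0.12 to 0.17). Nfkb1, a subunit of the factor NF-kappaB, was bounded to -0.18 to 0.15.

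Markers of other liver cells lay slightly above the donors. In bulk RNA, fewer cells of a type and less RNA per cell cannot be told apart, and likewise for more. Of 15 endothelial markers, 0 passed, 11 lay above 0 with a median of 0.10, and 5 were higher at an unadjusted p under 0.05 (33.3%, against 2.52% of all genes). Over all 14217 genes, 6817 lay above 0. The interval lay inside 0.5 for 11 of the 15 (73.3%, against 93.9%). Lyve1, a hyaluronan receptor of sinusoidal endothelium, read 9.19, 9.003 and 9.20 in donors and 9.76, 9.53 and 9.86 at 4 h. Its groups did not overlap, at 0.59, and Fcgr2b, an Fc receptor of the same cells, differed by 0.58. Neither passed (limma adjusted p = 0.426 and 0.445), and the other Lyve1 probe set, 1382732_at, differed by 0.08 (-0.19 to 0.36). Of 15 Kupffer cell and macrophage markers, 13 lay above 0 with a median of 0.10, and the mannose receptor Mrc1 differed by 0.37 (0.09 to 0.65, limma adjusted p = 0.852). Animal 2 at 4 h was the lowest of its group in 14 of these 15, and without it the median was 0.23. Leaving it out raises the differences of those 14 by construction, so the larger median is no support for a rise. Animal 2 was also the lowest of its group in 11 of the 15 endothelial markers.

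Red-cell transcripts differed among the 4 h animals. Hbb, a beta globin, read 11.50, 11.42 and 11.78 in donors and 13.38, 12.77 and 11.59 at 4 h. Animals 1 and 2 lay above all donors and animal 3 among them, and the difference of 1.02 (0.33 to 1.70) did not pass (limma adjusted p = 0.739). Without animal 3, Hbb was the gene called (1.51, limma adjusted p = 0.0348). Animal 3 was the lowest of its group for Hbb, so leaving it out raises the difference by construction. Alas2, the heme synthesis enzyme of red-cell precursors, read 6.29, 6.40 and 6.69 in donors and 8.96, 7.94 and 6.13 at 4 h, highest in animal 1 and lowest in animal 3. All 10 erythroid markers lay above 0 (6817 of all 14217 genes did), with a median of 0.19 and 0 called. The mean log2 signal of the list was 6.83, 6.83 and 6.94 in donors and 7.61, 7.32 and 6.84 at 4 h. Pf4, a platelet chemokine, read 6.02, 5.89 and 6.08 against 6.92, 6.63 and 6.62 (limma adjusted p = 0.256), while the platelet genes Ppbp and Itga2b differed by 0.07 and -0.03.

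Markers of stellate cells and fibroblasts were mixed, with 13 of 21 above 0, against 6817 of all 14217 genes. The fibrillar collagen Col3a1 read 10.29, 9.51 and 10.28 in donors and 9.48, 9.16 and 9.63 at 4 h. Its groups overlapped, at -0.60 (-1.04 to -0.16, limma adjusted p = 0.816), and Col1a2 differed by -0.45. Of 9 cholangiocyte markers, 9 had an interval inside 0.5. Among 12 genes of the exocrine pancreas the median was -0.04, with the carboxypeptidase Cpa1 at 1.45 (0.36 to 2.54) and the elastase Cela1 at -0.60 (-0.90 to -0.31), and 0 passed. The part of other cell types in the values above was not tested.

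The genes next to the threshold were chosen by smallest unadjusted p among genes whose groups did not overlap, so their p-values describe the choice and support nothing. Over all genes, groups did not overlap in 939 higher (6.60%) and 1041 lower (7.32%). The next 12 higher genes were Zfp36, Cxcl14, Ccl5, Sez6, Clec1b, Jam3, Rasgrp2, Bmp2, Syne2, Pf4, Tmem176b and Trim30d, with differences from 0.34 to 1.00. Sez6, a membrane protein known from neurons, read 6.45, 6.995 and 6.60 in donors and 7.40, 7.77 and 7.87 at 4 h. Bmp2, a signal that raises hepcidin in hepatocytes, read 7.54, 7.40 and 7.68 against 8.06, 7.97 and 8.24. In both the lowest animal at 4 h lay above the highest donor. Syne2, which ties the nucleus to the cytoskeleton, differed by 0.69 (0.39 to 0.99). Rasgrp2, an exchange factor of platelets, differed by 0.38, and the platelet receptor Clec1b by 0.53.

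The next 12 lower genes were Apoa1, Tsx, Pawr, LOC100911506, Xpnpep3, Myh1, C5h1orf122, Wasf1, Fabp2, Reep5, Cela1 and Miox, with differences from -0.78 to -0.31. Pawr, which promotes apoptosis, read 8.53, 8.42 and 8.50 in donors and 8.05, 8.16 and 8.04 at 4 h. The endoplasmic reticulum protein Reep5 differed by -0.59 and Wasf1, a regulator of actin, by -0.42. Of these 24 genes, 5 have other probe sets, 8 in all, and each of the 8 differed in the same direction as the one chosen. The 4 of Myh1 had an unadjusted p under 0.05, but 0 of the 4 of Cxcl14, Rasgrp2, Bmp2 and Reep5 did, at 0.03, 0.13, 0.26 and -0.14.

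For Myh1 the call depended on the probe set. The platform table assigns 5 probe sets to this skeletal muscle myosin heavy chain, and the match of their probes to the gene was not analysed here. On the brightest, donors read 11.57, 11.61 and 11.67 and 4 h animals 11.26, 11.26 and 11.25, at -0.36 (limma adjusted p = 0.318 among probe sets). The other 4 fell by 0.50, 0.49, 0.52 and 0.72, each past the threshold among all probe sets. With the mean of all probe sets per gene, 2 genes passed, Myh1 (-0.52) and Scd2 (1.54). Of the probe sets left out for want of a single symbol, 1 of 10216 passed (0.00979%), while 502 (4.91%) had an unadjusted p under 0.05.

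**Figure D5:**
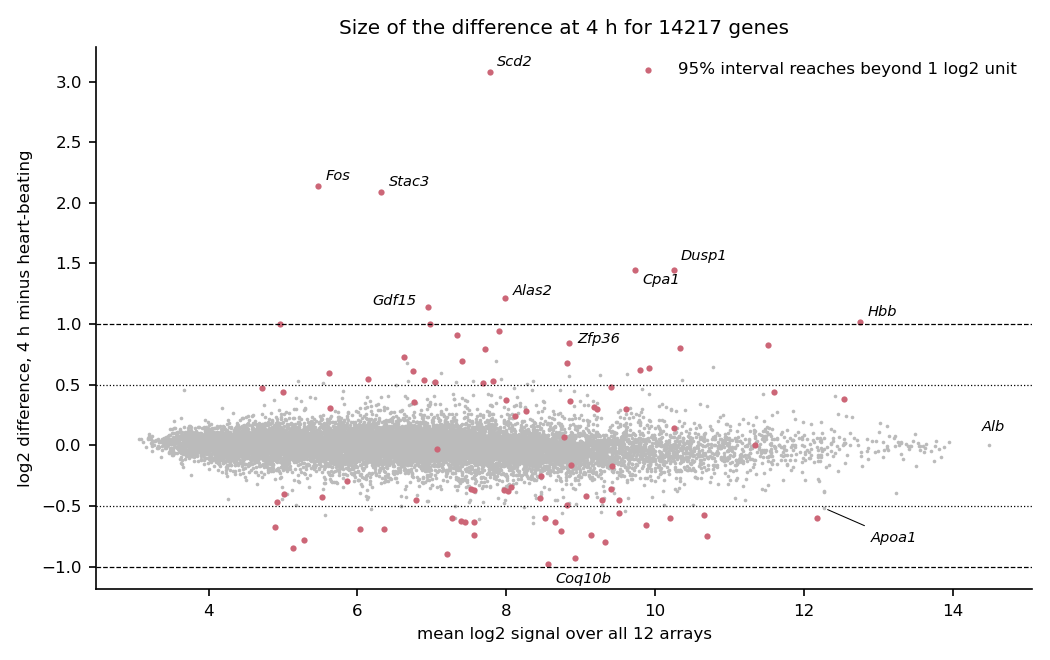
Log2 difference at 4 h minus heart-beating (vertical axis) against mean log2 signal over all 12 arrays (horizontal axis) for 14217 genes; dotted and dashed lines mark 0.5 and 1 log2 unit, and red points are the 89 genes whose 95% interval reaches beyond 1. The 8 genes beyond 1 all lie above 0, and Scd2 is the highest at 3.08.

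A change of more than 2-fold lies inside or beyond the interval of 89 genes. Of these, 45 differed upward and 44 downward, 53 had an interval that held 0, and 18 had groups that did not overlap. Over all 14217 genes, 6.60% lay apart upward and 7.32% downward, so nothing is read from the 18. The difference itself was larger than 1 in 8 genes, named after their values were seen: Scd2, Fos, Stac3, Cpa1, Dusp1, Alas2, Gdf15 and Hbb. All 8 were above the donors on average, and 0 genes lay below -1. Stac3, known from muscle, read 6.66, 5.63 and 5.52 in donors and 6.44, 8.30 and 9.34 at 4 h, and Gdf15, a stress-induced hormone, 6.18, 6.70 and 5.98 against 6.20, 8.17 and 7.91. Both overlapped with the donors through animal 1, at 2.09 (0.92 to 3.27) and 1.14 (0.19 to 2.08), and neither passed (limma adjusted p = 0.605 and 0.897). Without animal 1, Stac3 passed (2.89, limma adjusted p = 0.0262). Animal 1 was the lowest of its group for Stac3, so leaving it out raises the difference by construction. On the lower side, Coq10b read 8.12, 10.42 and 8.15 in donors and 8.34, 7.90 and 7.50 at 4 h, with donor 2 above the others and a difference of -0.98 (-1.98 to 0.02).

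At the other end stood the 10 genes of narrowest interval with a log2 signal from 9 to 13: Gsta1, Uqcrq, Idh1, Azgp1, Cmpk1, Cep170b, Dynll2, Mbnl1, Snrpe and Pon3. Azgp1, a plasma glycoprotein, was bounded to -0.11 to 0.14, the dynein light chain Dynll2 to -0.19 to 0.06 and the splicing protein Snrpe to -0.22 to 0.04. The other Dynll2 probe set, 1387782_at, was bounded less tightly, to -0.41 to 0.11. Hnf4a, a transcription factor that sets hepatocyte identity, read 10.44, 10.38 and 10.22 in donors and 10.35, 10.12 and 9.93 at 4 h. Its groups overlapped, at -0.22 (-0.46 to 0.03), while its other probe sets, 1369289_at and 1382496_at, lay the other way, at 0.25 (0.03 to 0.46) and 0.12 (-0.19 to 0.44). Of 20 hepatocyte transcription factors, 0 passed and 15 (75%) were inside 0.5, against 93.9% of all genes. Among 17 clock genes, 14 (82.4%) were inside 0.5, with the brightest of 4 Clock probe sets at -0.22 and the others from -0.15 to 0.12.

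Later arrays place the early values in time. Against the 4 h animals, 1511 genes were called at 16 h (10.6%) and 3391 at 30 h (23.9%). Scd2 fell by 4.76 log2 units from 4 h to 16 h and lay 3.78 below its 4 h level at 30 h (-3.78 on the log2 scale). Of the 25 genes called or nearest to the threshold at 4 h, 16 differed from 4 h at 16 h and 10 at 30 h. Those comparisons share the 4 h arrays on which the 25 were chosen, so nothing is read from their number or direction. Zfp36 had a log2 signal of 8.93 ± 0.12 (SD) at 4 h and 9.51 ± 0.23 at 16 h, when it was higher by 0.58.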

How the data were processed

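Total RNA of freshly isolated rat hepatocytes was extracted with a spin column kit, and labelled cRNA was hybridised to Affymetrix arrays, per the labels' protocols. The deposited table holds the authors' log2 values, 1 per probe set and array. RMA, which corrects background, normalizes arrays to a shared distribution and summarizes probes, and limma are named in the submitters' processing notes, with versions not given in the sources used here. Array medians lay between 6.20 and 6.22, so a change shared by most transcripts would not be seen. The number of arrays limits the precision.

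Of 31099 probe sets, 57 controls were set aside, and 20826 of the other 31042 had 1 gene symbol in the platform annotation (436 had several and 9780 none). Gene IDs of 20758 matched the GRCr8 annotation, whose symbols were used. The probe set of highest mean signal over the 12 arrays stood for each of 14217 genes. limma 3.58.1 in R 4.3.3 fitted 1 mean per group to all 12 arrays, and p-values were adjusted by Benjamini-Hochberg over all genes. Intervals are 95% moderated intervals, and equivalence used 2 one-sided tests against 0.5 log2 units. The scripts were checked on simulated data.

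The genes named are the called gene, the next 12 higher and 12 lower by p without overlap, a fixed set of liver and stress genes, the genes of smallest p and narrowest or widest interval in each list, and the 10 genes of narrowest interval and of largest SD in donors. The members and lists were chosen with earlier results of these data known. Promoters came from RefSeq.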

Additional observations from a re-analysis of the deposited data

Results flagged for a closer look

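Among the 25 genes called or nearest to the threshold at 4 h, 17 had a tested difference between 4 h and a later time (limma adjusted p under 0.05), and these are listed as log2 differences from the 4 h animals. Over all genes, 10.6% were called at 16 h against 4 h and 23.9% at 30 h. The comparisons share the 4 h arrays on which the genes were chosen, so nothing is read from their number or direction. Scd2 differed by -4.76 at 16 h and -3.78 at 30 h, Cxcl14 by -0.77 and -0.82, Sez6 by -1.24 and -0.58, Rasgrp2 by -0.35 and -0.22, and Tmem176b by -0.86 and -1.27. Syne2 differed by -0.81 at 16 h, and Zfp36 by 0.58. Among genes lower at 4 h, Pawr differed by 0.62 at 16 h and 0.52 at 30 h, Xpnpep3 by 0.27 and 0.52, C5h1orf122 by 0.34 and 0.27, and Reep5 by 0.68 and 0.68. At 16 h alone, Apoa1 differed by 0.51, Tsx by 0.54, LOC100911506 by 0.62, Wasf1 by 0.66 and Cela1 by 0.49. Myh1 differed by 0.46 at 30 h.

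A control probe set for 5S ribosomal RNA, which the gene comparison leaves out, read 6.68, 7.36 and 7.08 in heart-beating donors and 9.17, 8.66 and 8.19 at 4 h. The groups did not overlap, at 1.63 log2 units, and the exact two-sided permutation p was 0.1, the smallest that 3 arrays against 3 can give. The other 56 controls differed by -0.15 to 0.17. Among probe sets without a single gene symbol, 1394848_at read 4.99, 4.98 and 4.93 in donors and 5.45, 5.55 and 5.62 at 4 h, a difference of 0.57 (limma adjusted p = 0.00867).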

How the results depend on the processing

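The count of called genes was 1 in the main fit. It was 2 with the mean of all probe sets, 11 with array weights, 6 when every probe set was tested on its own, and 0 with a variance trend and robust fit, with only the 6 arrays compared, without the 30 h arrays and with the replicate block. With array weights the 11 were Scd2, Zfp36, Cxcl14, Ccl5, Sez6, Syne2 and Pf4 higher and Apoa1, Tsx, Pawr and LOC100911506 lower. Leaving out 1 array gave 0 to 5. The difference of Scd2 stayed at 3.08 but did not pass with the trend and robust fit (limma adjusted p = 0.200), with only the 6 arrays (0.199), without the 30 h arrays (0.0728) or with the replicate block (0.158), and was 2.61 to 3.62 when 1 array was left out. Same-numbered arrays of donors and 4 h animals had correlations of -0.21, -0.21 and -0.02 in their deviations from the group means. Differently numbered arrays had -0.03 to 0.25. With 3 arrays per group, and the later groups not compared, this cannot show whether the numbers share a day or batch. Restricting to the upper 50% of genes by signal, which tests fewer genes, left 7035 intervals inside 1, 6424 inside 0.5 and 6620 genes equivalent. Leaving out 1 array gave 14092 to 14133, 12847 to 13480 and 13250 to 13696, and the 3′ to 5′ contrast between groups was -0.05 to 0.05 for Gapdh and -0.19 to -0.05 for Actb. No gene that passed in any setting had the opposite sign in the main fit, but values that did not pass could change sign. Without donor 2, Myc went from -0.45 to 0.58 (limma unadjusted p = 0.00344, adjusted p = 0.387). Atf3 went from -0.47 to 0.54 (limma adjusted p = 0.869). The urea cycle median was 0.05 in the main fit and -0.01 without heart-beating donor 3. The erythroid median was 0.92 in the upper 50% by signal and 0.30 without animal 3 at 4 h. Animal 3 was the lowest of its group in 7 of the 10 erythroid markers, so leaving it out raises their differences by construction. Among genes with an unadjusted p under 0.05, 45.6% were higher, and 38.5% to 49.3% over the alternatives.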
